A study of Mus musculus with 4 samples.

Results

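The keratins and secreted proteins of the suprabasal epidermis were examined in mouse embryonic skin at day E16.5, with and without overexpression of the transcription factor Ovol2. The group has 10 genes, of 19938 with a usable probe set on the array. They are the suprabasal keratins Krt1, Krt10, Krt2, Krt77, Krt78 and Krt80, the secreted products Krtdap, Sbsn and Dmkn, and the calmodulin-like gene Calml3. Genes were chosen by name, as probe sets whose only annotated symbol is one of these. Each of the 10 had 1 probe set, so choosing the brightest one per gene changed nothing.

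Both control arrays held RNA of embryos that were wild type or carried the responder transgene TRE-Ovol2-Flag alone, and which control array held which is not given in the labels. Both Ovol2 BT arrays held RNA of TRE-Ovol2-Flag;K5-tTA embryos, in which a tetracycline transactivator under the keratin 5 promoter, active in basal keratinocytes, drives tagged Ovol2. Each array received RNA of 2 mice, and no embryos with the transactivator alone were analysed here. The labels give strain CB6F1 for controls and FVB/N for Ovol2 BT, although they also describe the animals as littermates, so strain and genotype cannot be told apart. In the submitters' account this age was chosen because morphology had hardly diverged, so the comparison addresses early transcript differences.

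A keratin filament is built from pairs of a type I and a type II keratin. Basal keratinocytes make Krt5 with Krt14. On leaving the basal layer they switch to Krt1 with Krt10, the defining keratins of the spinous layer, while Krtdap, Sbsn and Dmkn are secreted by these suprabasal cells. Krt2 and Krt77 are further type II partners of suprabasal cells, and Krt80 is a type II keratin of differentiating epithelia.

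Sbsn, Dmkn and Krtdap lie next to each other on mouse chromosome 7, with no other protein-coding gene between them in the RefSeq order. Their start regions, taken from RefSeq on GRCm38.p6 (250 bases before to 50 after each start), are shown because all of them hold the same motif. RefSeq windows were matched for 7 of the 10 genes (Krt10, Krt2, Krt77, Krt78, Krtdap, Sbsn and Dmkn). Capitals mark TGANTCA, the AP-1 site with its middle base left free (the usual forms are TGACTCA and TGAGTCA), and TATAAA, core letters of the TATA box. Sbsn is at chr7:30751221-30751520, plus strand; Dmkn at chr7:30763506-30763805 and, for a later start, chr7:30776155-30776454, both plus strand; Krtdap at chr7:30787655-30787954, plus strand; and Krt10, shown for comparison, at chr11:99389315-99389614, minus strand.
Sbsn: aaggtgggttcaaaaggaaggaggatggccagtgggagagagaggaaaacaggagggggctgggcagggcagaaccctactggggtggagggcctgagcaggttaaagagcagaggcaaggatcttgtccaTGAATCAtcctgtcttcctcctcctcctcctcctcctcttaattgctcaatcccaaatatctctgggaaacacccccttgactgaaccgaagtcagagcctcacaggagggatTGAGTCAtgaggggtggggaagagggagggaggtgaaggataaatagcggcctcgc
Dmkn, upstream start: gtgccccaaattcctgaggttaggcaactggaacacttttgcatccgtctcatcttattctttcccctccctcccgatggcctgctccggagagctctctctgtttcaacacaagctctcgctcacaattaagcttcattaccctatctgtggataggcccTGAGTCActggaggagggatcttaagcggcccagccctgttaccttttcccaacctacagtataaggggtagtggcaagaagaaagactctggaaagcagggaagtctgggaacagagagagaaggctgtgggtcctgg
Dmkn, downstream start: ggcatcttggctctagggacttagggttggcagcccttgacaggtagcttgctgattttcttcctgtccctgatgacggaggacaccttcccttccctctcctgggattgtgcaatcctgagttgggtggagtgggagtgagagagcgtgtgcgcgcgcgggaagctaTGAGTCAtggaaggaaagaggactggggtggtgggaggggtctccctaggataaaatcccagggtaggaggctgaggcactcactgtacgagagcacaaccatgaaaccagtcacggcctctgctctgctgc
Krtdap: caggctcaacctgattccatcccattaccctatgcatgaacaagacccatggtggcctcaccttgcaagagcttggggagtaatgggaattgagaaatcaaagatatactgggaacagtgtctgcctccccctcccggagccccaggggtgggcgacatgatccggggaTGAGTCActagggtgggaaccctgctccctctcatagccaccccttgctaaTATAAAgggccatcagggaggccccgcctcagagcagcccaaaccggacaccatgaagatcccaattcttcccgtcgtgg
Krt10: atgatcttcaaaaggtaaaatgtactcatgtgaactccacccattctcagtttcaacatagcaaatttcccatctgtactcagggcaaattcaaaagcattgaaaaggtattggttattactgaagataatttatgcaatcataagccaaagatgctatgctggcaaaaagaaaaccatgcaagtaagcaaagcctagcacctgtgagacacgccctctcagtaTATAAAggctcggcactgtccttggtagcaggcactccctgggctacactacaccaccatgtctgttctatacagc

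TGANTCA, searched on both strands, was found in the windows of 3 of the 7 genes, which were Sbsn, Dmkn and Krtdap. Over all RefSeq genes with a window, 8.97% had it. In Krtdap the match ended 75 bases before the start, and in Dmkn 83 bases before the upstream start and 76 before the downstream one. Sbsn had a pair of matches, TGAATCA ending 113 bases before the start and TGAGTCA ending on the start base itself. The former is not a usual AP-1 form. TATAAA was found for 2 of the 7 genes, beginning 26 bases before the start in Krt10 and 30 before it in Krtdap, against 15.7% of all genes. The letters CCGTTA, the core recognised by the Ovo family of zinc finger proteins to which Ovol2 belongs, were in 0 of the 7 windows, against 3.15% of all genes. A match or its lack in these 300 bases describes the letters only.

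Precision is limited by the number of arrays, which give no depth. Ovol2 itself had signals of 176 and 297 in controls and 7798 and 7949 in Ovol2 BT skin (limma adjusted p = 0.0256). Each array thus matches its label as control or Ovol2 BT. Ovol2 BT replicate 2 stood apart, with Pearson's r over genes of 0.924 to 0.935 with the other arrays, against 0.976 to 0.983 among those. All samples are labelled female, but the Y-linked gene Eif2s3y had signals of 1101 and 1339 on the replicate 1 arrays and 55.9 and 10.4 on the replicate 2 arrays. For the suprabasal genes signals are given for each array, so that they can be read without Ovol2 BT replicate 2. The markers of dermal fibroblasts were measured for 10 of 10 genes, with summed signals of 90187 and 89269 in controls and 93681 and 84970 in Ovol2 BT skin. Skeletal muscle markers followed neither genotype, with sums of 52217 and 29942 in controls and 28810 and 56586 in Ovol2 BT skin. Erythroid sums over 5 genes were 3480 and 6868 against 4069 and 14887. Macrophage and myeloid markers were higher without overlap for 6 of 8 genes, against 20.1% of all genes tested. Their sums were 10390 and 9755 in controls against 12417 and 13699, with a median difference of 0.41, and none passed over all genes. Their part in the results below was not tested. Krt1 and Krt10, and Krt5 and Krt14 of the basal layer, were bright on all 4 arrays, the dimmest value being that of Krt14 on Ovol2 BT replicate 1 (5573), so epidermis was present in each. In whole skin, fewer cells of a type and less RNA per cell cannot be told apart.

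Most suprabasal genes had small measured differences between the genotypes. Krt80 stood out at 0.51, and the intervals of Krt78 and Calml3 were wide. None of the 9 that were bright enough to test passed an adjusted p of 0.05 in limma, where 4 of 14953 genes did (0.0268%). At an unadjusted p under 0.05 there was 1 of the 9, Krt80, which was higher, against 4.22% of all genes (2.49% higher and 1.73% lower). Differences below are Ovol2 BT minus control on the log2(intensity + 16) scale, from limma's moderated test over 2 arrays per group, with adjusted p after Benjamini-Hochberg over all genes tested. Their 95% intervals are not adjusted for the number of genes. The labels call the arrays biological replicates, and each is a pool of 2 mice. Over all 10 genes the median difference was -0.07, against 0.03 over all genes tested. Against the control mean it was -0.05 for Ovol2 BT replicate 1 and also for replicate 2, and control replicate 2 exceeded control replicate 1 by a median of 0.04.

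**Figure D1:**
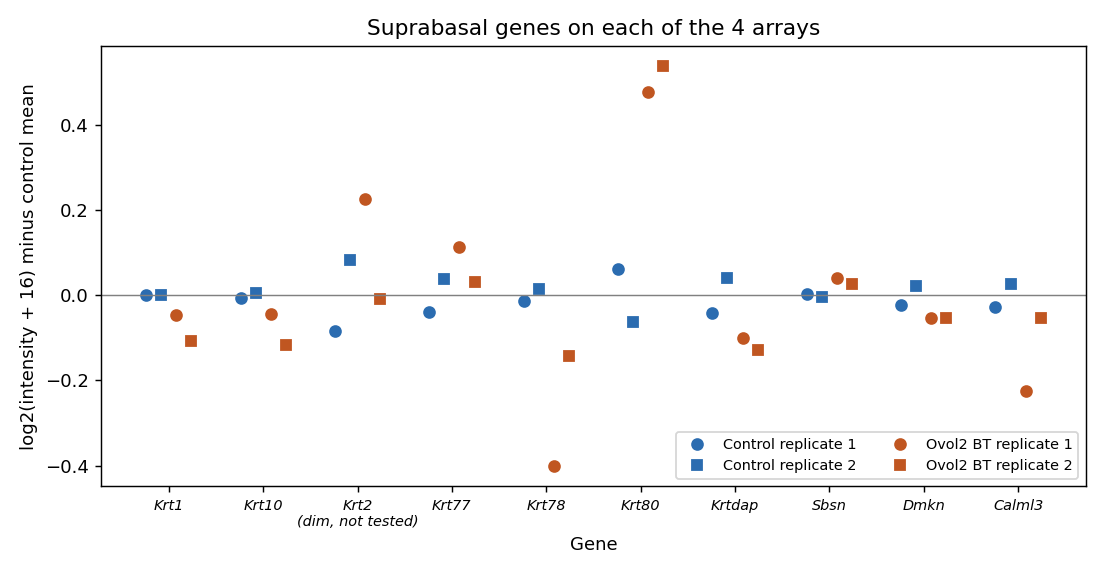
Signal of each of the 10 genes on each array, as log2(intensity + 16) minus the mean of the 2 control arrays; circles are replicate 1, squares replicate 2, blue control and orange Ovol2 BT. Krt80 is the gene with both Ovol2 BT arrays far above the controls, by 0.48 and 0.54, and Krt78 has the lowest single value, -0.40 on Ovol2 BT replicate 1.

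Krt1, the type II keratin of the spinous layer, had signals of 17561 and 17564 in controls and 16997 and 16297.5 in Ovol2 BT skin. Both Ovol2 BT values lay below both controls, by a small margin. The difference was -0.08 (SE 0.04, 95% interval -0.19 to 0.03, adjusted p = 0.907, n = 2 arrays per group). Krt10, its type I partner, read 16262 and 16382 in controls and 15822 and 15043 in Ovol2 BT skin. Its groups did not overlap either, and the difference was also -0.08 (SE 0.05, interval -0.20 to 0.04, adjusted p = 0.907). Both partners ranked the arrays in the same order, with Ovol2 BT replicate 2 lowest. Among 90 other genes of the epidermal lists, the profile nearest to that of Krt1 over the 4 arrays was that of Krt10, with a root mean square distance of 0.0059 on the log2 scale after centring each gene. The transglutaminase Tgm1 (0.0111) and the junction protein Jup (0.0234) followed. For Krt10 the nearest were Krt1, Tgm1 (0.0146) and the Ly6 family gene Ly6g6c (0.023). These distances rest on 4 arrays and describe them only.

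Krt77, a type II keratin close to Krt1 in sequence and its neighbour on chromosome 15, read 12417 and 13115 in controls and 13801 and 13036.5 in Ovol2 BT skin. The groups overlapped, since Ovol2 BT replicate 2 lay between the controls. Its difference was 0.07 (SE 0.06, interval -0.08 to 0.22, adjusted p = 0.907). Krt2, on the other side of Krt1 and typical of the upper suprabasal layers, was dim at this age on these arrays. Its signals were 67.9 and 78.2 in controls and 88.1 and 72.4 in Ovol2 BT skin, below the level at which genes were tested (log2 level of 7.32), so it has no test. The Krt2 groups overlapped, and their means differed by 0.11. Whether probes of related keratins read each other's transcripts was not tested.

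Krt80 differed most among the genes tested. Its signals were 3521 and 3230 in control skin, against 4699 and 4906 with Ovol2 overexpressed. Both Ovol2 BT arrays exceeded both controls, by more than the spread within either group (SD 0.09 and 0.04 on the log2 scale). The difference was 0.51, a ratio of 1.42 (SE 0.12, interval 0.21 to 0.80). It did not pass over all genes (unadjusted p = 0.00607, adjusted p = 0.709), where its p ranked 128th of 14953. Without Ovol2 BT replicate 1 the difference was 0.54, but the only array then left in that group is replicate 2, which stood apart from the others. The interval of Krt80 lay above those of Krt1, Krt10, Krtdap, Dmkn and Calml3 and overlapped those of Krt77, Sbsn and Krt78.

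The profile of Krt80 was nearest to those of the stress keratin Krt17 (distance 0.0328), the keratin Krt23 (0.0885) and the corneodesmosome gene Cdsn (0.103). By its construction this distance picks genes with a like difference between the groups. Krt17 differed by 0.56, Krt23 by 0.36 and Cdsn by 0.31, and none of these passed over all genes. For markers of periderm, the transient outer layer of fetal epidermis, and simple epithelium, 8 of 8 differences were positive. Over all genes tested, 8140 of 14953 were. Of these 1, Krt8, passed over all genes in limma. All 8 had an unadjusted p under 0.05, against 2.49% of all genes that were higher at that level. Krt23 is itself among these 8 markers, which were chosen with earlier results of these data known. They had summed signals of 10567 and 8922 in controls and 23285 and 24789 in Ovol2 BT skin, and none was at 0. Their part in the Krt80 difference was not tested.

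Krt78, a type II keratin of the suprabasal layers, was lower, with signals of 769 and 784 in controls and 584 and 702 in Ovol2 BT skin. Each Ovol2 BT array lay below both controls, replicate 1 at -0.40 and replicate 2 at -0.14 against the control mean. With this spread the difference of -0.27 had a wide interval (SE 0.20, -0.76 to 0.22, adjusted p = 0.907). It would be -0.40 without Ovol2 BT replicate 2 and -0.14 without replicate 1, and passed in neither fit.

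Among the secreted products, Krtdap, a small peptide linked to keratinocyte differentiation, read 10069 and 10657 in controls and 9665 and 9474 in Ovol2 BT skin. Its groups did not overlap, and the difference was -0.11 (SE 0.07, interval -0.28 to 0.05, adjusted p = 0.907). Dmkn, dermokine, read 10339 and 10654 against 10110 and 10119. The difference of -0.05 (SE 0.06, interval -0.21 to 0.10, adjusted p = 0.910) turned to 0.01 when each array was centred on its median. Sbsn, suprabasin, read 7213 and 7171 against 7395 and 7329, which is 0.03 (SE 0.08, interval -0.16 to 0.22, adjusted p = 0.945). Its 2 Ovol2 BT arrays were both higher than both controls, although the difference was the smallest among these genes. The 3 neighbours whose start regions are printed above thus stayed within 0.12 of zero, with intervals that reach no lower than -0.28 and no higher than 0.22.

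Calml3, a calmodulin-like protein of stratified epithelia, read 3932 and 4082 in controls and 3425 and 3863 in Ovol2 BT skin. Ovol2 BT replicate 1 was at -0.22 and replicate 2 at -0.05 against the control mean, without overlap between the groups. The difference was -0.14 (SE 0.12, interval -0.45 to 0.17, adjusted p = 0.907). Calm4, a related calmodulin-like gene next to Calml3 on chromosome 13, had signals of 8947 and 7092 in controls and 8977 and 9295 in Ovol2 BT skin. It differed by 0.20 (SE 0.12, adjusted p = 0.907).

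The groups did not overlap for 8 of the 9 genes tested, 2 higher (Krt80 and Sbsn) and 6 lower (Krt1, Krt10, Krt78, Krtdap, Dmkn and Calml3). Over all genes this held for 34.2%, with 20.1% higher and 14.1% lower. Whether the groups overlapped depended on how arrays were scaled. Of all 10 genes, the untested Krt2 included, 2 lay wholly higher and 6 wholly lower without further scaling. After centring each array on its median these counts were 4 and 2, and after quantile normalisation 3 and 5. The share over all genes was not computed under these scalings. Centring moved the median difference over all genes tested from 0.03 to 0.09. With median centring, Krt1 and Krt10 differed by -0.01 and -0.02, and Krt80 by 0.57. The same centring gave 466 genes higher and 194 lower at an unadjusted p under 0.05, against 372 and 259 without it. Among calls over all genes it gave 6 higher and 1 lower, and quantile normalisation 3 and 2, against 3 and 1.

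**Figure D2:**
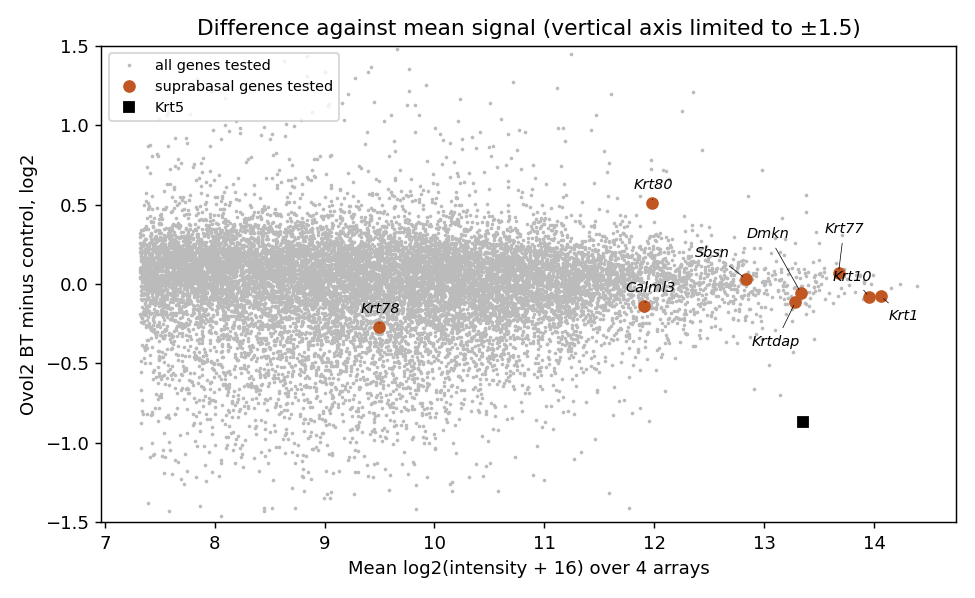
Difference between genotypes (vertical, log2, limited to ±1.5, which leaves out 34 genes) against the mean log2(intensity + 16) over the 4 arrays (horizontal) for all genes tested in grey, with the 9 suprabasal genes tested in orange and Krt5 as a black square. Krt1 (mean 14.06) and Krt10 lie at the bright end close to 0, and Krt5, less bright at a mean of 13.35, lies at -0.87.

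Several of these genes gave some of the highest signals on the arrays. By mean signal among the 14953 genes tested, Krt1 ranked 4th, Krt10 7th, Krt77 22nd, Dmkn 69th and Krtdap 79th. Such ranks compare probe sets and not transcript levels. Bright genes differed less between the genotypes: the median absolute difference was 0.07 over the 100 brightest and 0.16 over those ranked below 2000. Whether signals this high rise less than in proportion to RNA was not tested. Krt5, with control signals of 14222 and 13988, read 7523 and 7928 in Ovol2 BT skin (a different probe set, below the signals of Krt1 and Krt10). Of the 100 brightest genes, 2 had an absolute difference above 0.5, and Krt5 had the largest.

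**Figure D3:**
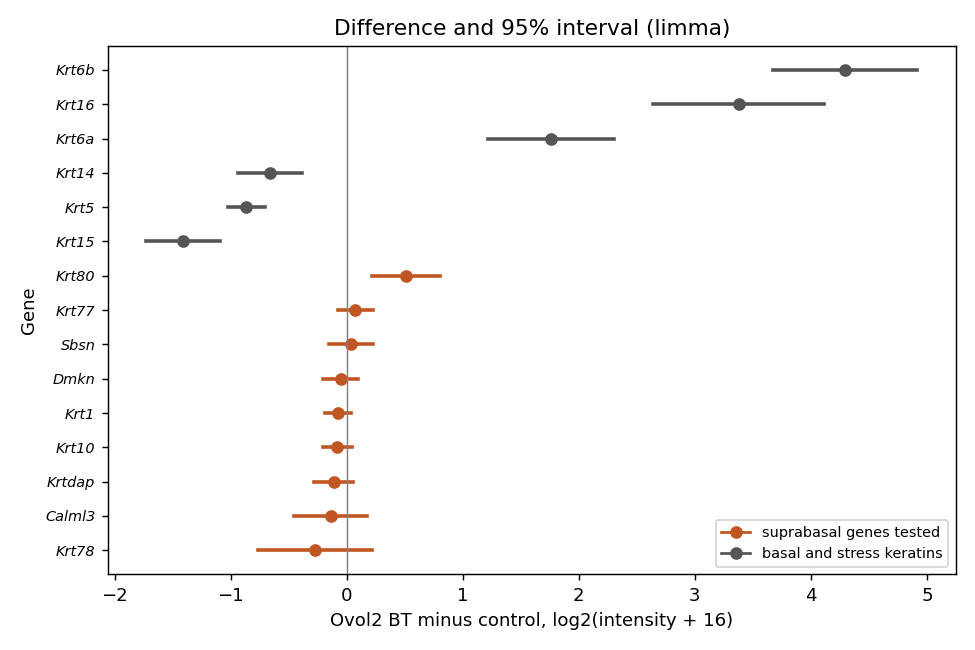
Ovol2 BT minus control on the log2(intensity + 16) scale (horizontal) with limma's 95% interval for the 9 suprabasal genes tested (orange) and for 6 basal and stress keratins (grey). All orange intervals but that of Krt80 include 0, while the grey intervals lie wholly below 0 for Krt5, Krt14 and Krt15 and above it for Krt6a, Krt6b and Krt16.

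The basal and stress keratins differed more. In the basal layer Krt5 differed by -0.87 (interval -1.03 to -0.71), Krt14 by -0.66 (-0.93 to -0.38) and the type I keratin Krt15 by -1.41 (-1.73 to -1.09). None of these passed over all genes in limma (adjusted p = 0.0600, 0.434 and 0.102). The summed signal of the 12 basal markers was 45695 and 48384 in controls and 31932 and 32207 in Ovol2 BT skin. Without these 3 keratins the sums were 16079 and 19160 against 16796 and 15396. Of the 9 genes left, 7 had negative and 2 positive differences, with a median of -0.085. The largest were Dst (-0.53), Lama3 (-0.51), and the integrins Itgb4 (0.45) and Itgb1 (-0.28). Against the control mean Itgb1 was at 0.13 on Ovol2 BT replicate 1 and -0.69 on replicate 2, with groups that overlapped. Control replicate 2 exceeded control replicate 1 by 0.645 for Lama3 and 0.40 for Itgb4. Itga3 was at 0.04, Col17a1 at -0.05 and Itga6 at -0.09, and none of the 9 passed the threshold. The summed signal of the 10 suprabasal genes was 82151 and 83716 in controls and 82586 and 80843 in Ovol2 BT skin. Of the stress keratins, which suprabasal cells make when injured or activated, Krt6b rose by 4.30 (adjusted p = 0.0256). Krt16 differed by 3.38 and Krt6a by 1.76 (adjusted p = 0.0952 and 0.247). The intervals of Krt1 and Krt10 overlapped none of these 6.

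**Figure D4:**
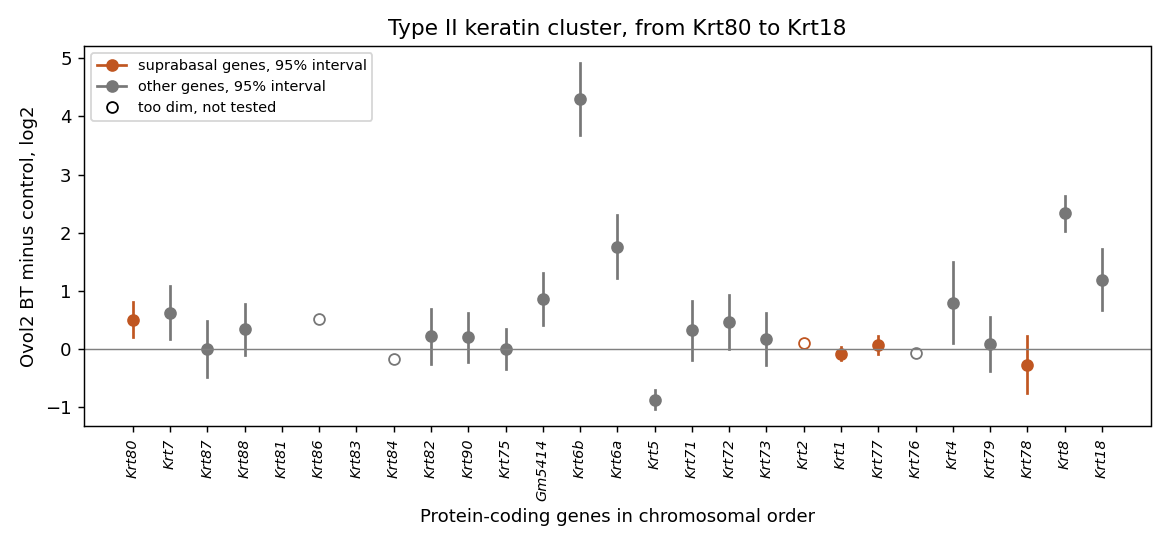
Ovol2 BT minus control (vertical, log2) for protein-coding genes in their chromosomal order from Krt80 to Krt18; orange marks the suprabasal genes, bars are limma's 95% intervals, and open circles are genes too dim to test. Krt81 and Krt83 have no value here; Krt6b (4.30) and Krt8 (2.34) stand highest, and Krt1 and Krt77 lie close to 0 between them.

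On chromosome 15 the type II keratins form one cluster, which begins with Krt80 and ends with Krt8 and the type I keratin Krt18. Of its 27 protein-coding genes 21 were tested, 16 with positive and 5 with negative differences, and 2 rose over all genes, Krt6b and Krt8, the latter a keratin of simple epithelia and periderm (2.34). Krt78 is the immediate neighbour of Krt8 and differed by -0.27. Krt80 is next to Krt7, a keratin of simple epithelia, which differed by 0.63 (SE 0.18, adjusted p = 0.900). In the type I cluster on chromosome 11, Krt10 is flanked by Krt28, too dim to test, and Krt12, which differed by -0.32 (SE 0.21, adjusted p = 0.907). Over the keratin family outside the suprabasal genes, 34 members were tested, 25 with positive and 9 with negative differences and a median of 0.26. Besides Krt6b and Krt8 none of the 34 passed.

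The other genes listed for the spinous layer leaned lower. In which layers they were expressed cannot be read from whole skin. Of 18 tested, 0 passed over all genes in limma, and 6 had an unadjusted p under 0.05, all lower. In all 13 had negative and 5 positive differences, with a median of -0.13. The largest were the water and glycerol channel Aqp3 (-1.26, SE 0.19, adjusted p = 0.382), the desmosomal cadherins Dsc3 (-0.81, SE 0.23) and Dsg1b (-0.63, SE 0.36), and the lectin Lgals7 (-0.33, SE 0.13). Dsg1b read 1802 and 1941 in controls and 1731 and 835 in Ovol2 BT skin, so that its difference rested mainly on replicate 2. On Ovol2 BT replicates 1 and 2, against the control mean, Dsc3 was at -0.48 and -1.14, Lgals7 at -0.51 and -0.15, and Aqp3 at -1.35 and -1.17. Krtdap (-0.11) was near the list's median, and Krt1 and Krt10 (-0.08 each) were closer to 0.

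Regulators of the switch from basal to spinous cells did not pass either. Of 20 tested 0 passed over all genes in limma, and 1 had an unadjusted p under 0.05, the transcription factor Tfap2c (-0.96, SE 0.25, adjusted p = 0.799). The next largest were Cebpa (-0.47, SE 0.23), which restrains division of suprabasal cells, Gata3 (-0.22, SE 0.15) and Trp63 (-0.21, SE 0.18), the master factor of the basal layer. Against the control mean Cebpa was at -0.76 on Ovol2 BT replicate 1 and -0.18 on replicate 2, and Tfap2c at -1.25 and -0.66. Trp63 was at -0.07 and -0.36, with groups that overlapped. The Notch receptors that drive the switch differed by 0.17 (Notch1), 0.02 (Notch2) and 0.15 (Notch3), and the target Hes1 by -0.15, all with groups that overlapped.

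Genes of the next layer up, the granular layer and cornified envelope, leaned higher. Of 21 tested 0 passed over all genes in limma, 8 were higher and 1 lower at an unadjusted p under 0.05, and the median was 0.13. The largest were the small proline-rich Sprr2d (1.63), Flg2 (1.35), the transglutaminase Tgm3 (-1.22) and Lce1b (1.21). Flg2 had signals of 922 and 303 on the control arrays and 1365 and 1399 in Ovol2 BT skin, so the lower control enlarged its difference. Relative to the control mean, Tgm3 was at -1.78 for Ovol2 BT replicate 1 and -0.65 for the other. Differences between these lists and the suprabasal genes were not tested.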

How the data were processed

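Total RNA of skin was measured on 4 Affymetrix whole-transcript arrays, 2 per genotype. The deposited intensity values are linear, 1 per probe set and array, and were made by the authors with Affymetrix Expression Console 1.1.1 and PLIER 2.0, per the submitters' processing notes; for the normalisation between arrays and the genome build the sources used here give nothing. Of 35557 probe sets, 21789 had 1 gene symbol and were used (1621 had several and 12147 none listed); RefSeq (GRCm38.p6) supplied current symbols by Entrez number for 21698.

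Values were taken to log2(intensity + 16), which shrinks differences of dim genes, and the brightest probe set per gene was kept. Genes with a mean under the 25th percentile were left out, and 14953 of 19938 were tested with limma 3.58.1 in R 4.3.3 (lmFit, eBayes with intensity trend, two-sided, 2 residual and 3.44 prior degrees of freedom, Benjamini-Hochberg adjustment). With 2 arrays per group the smallest exact permutation p is 0.333, and no such test was run. Steps were tested on simulated data. The genes and lists were chosen with earlier results of these data known. Named beside the suprabasal genes were the basal and stress keratins, called genes, the 4 largest differences of each list described and the nearest profiles. For the basal markers these 4 were taken without the keratins, and Itga3, Itga6 and Col17a1 were named outside this rule. Neighbours, Notch receptors, Hes1, Krt7, Krt12 and Krt17 were chosen after their values were seen. Alternatives were other scalings, offsets, filters, probe set rules, variance models, a replicate block and leaving out each array.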

Additional observations from a re-analysis of the deposited data

How the results depend on the processing

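Across 15 alternatives Krt1, Krt10, Krt77, Krt78, Krt80, Krtdap, Sbsn and Calml3 kept the sign of their difference. Dmkn turned to 0.0104 with median centring, and Krt2 to -0.01 without Ovol2 BT replicate 1. Other filters, the probe set rule, the variance model, array weights and replicate blocks left the differences of these genes as they were. Only scalings, offsets and left-out arrays could change a sign. Krt80 ranged from 0.45 to 0.57. Leaving out each array in turn gave 0 to 1 of the suprabasal genes past the threshold (Krt80, adjusted p = 0.0142, without Ovol2 BT replicate 1), and 0 under the other alternatives; it gave 4 to 2455 genes over all, the lowest without control replicate 2, with 7 without control replicate 1 and 107 without Ovol2 BT replicate 2. In such a fit the lone array is assumed to vary like the other group. Without Ovol2 BT replicate 1 that lone array is replicate 2, which stood apart from the other arrays. The count over all genes was 7 with median centring and 0 with a variance without trend (599 at an unadjusted p under 0.05). The median over the 10 genes was -0.0436 with quantile normalisation, -0.0017 with median centring and -0.0762 to -0.0460 without each array. Replicate numbers share no stated litter or batch: with the replicate block 9 genes passed and no suprabasal gene did. The replicate differences of the groups correlated at -0.17 over genes, and a crossed pairing, added after seeing the data, called 5. No detection limit for differences of this size was computed.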

Other observations

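Among the genes next to the suprabasal ones, Gapdhs, a glycolytic enzyme of sperm that lies beside Sbsn on chromosome 7, had the largest difference after Krt8. It differed by 0.64 (SE 0.15, limma adjusted p = 0.708), while Sbsn differed by 0.03. Asb13, on the other side of Calml3, differed by -0.07 (SE 0.16, adjusted p = 0.944). These neighbours were named after their values were seen.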
